A study of Homo sapiens with 97 samples.

Results

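In U2OS cells, an osteosarcoma line, 2168 of the 2591 early-replicating domains on chromosomes 1 to 22 and X were shorter than 500 kb. These 2168 short early domains are the subject here. They were chosen by their timing class and length in the deposited timing lists: touching intervals of the same class were joined, and early domains under 500 kb were kept. Timing class, length, flanking classes and spacing therefore describe how the members were selected and were not tested. Nascent strand peaks and break sites come from other assays and are not used by this rule.

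The series followed DNA replication near DNA double-strand breaks, with 97 samples in 50 groups. The timing lists were deposited with untreated wild-type U2OS cells in G1 and in S phase, each a sample named as merged. Nascent strand sequencing (NS-seq), which maps the short RNA-primed strands made where replication starts, was done in AsiSI-U2OS cells, which carry the cutting enzyme AsiSI. It has 4 samples, 2 without treatment and 2 given 4-hydroxytamoxifen (4OHT, 300 nM for 4 h) to induce cutting. Its merged peak list, attached to an untreated input sample, does not separate treated from untreated cells. The break list holds AsiSI sites that overlap MRE11, a nuclease that resects broken DNA ends. It was attached to 4OHT-treated HCT116 cells, a colorectal carcinoma line, that lacked the end-joining ligase LIG4 and carried an AID degron tag on the cohesin subunit RAD21. Timing, origins and breaks were thus read in different lines, and each list is a single summary without replicates. Comparisons below are therefore descriptions with no p value. Intervals at the 95% level cover counting error only, and they are too narrow where peaks lie in clusters.

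Human chromosomes replicate in a fixed order, with blocks of many neighbouring origins firing early in S phase and others late. Early blocks tend to hold active genes and open chromatin, and late blocks tend to lie at the nuclear periphery. In timing profiles a short early block appears as a small crest, either on the slope of a larger early region or alone within later sequence.

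Short domains made up 83.7% of early domains and 44.0% of early sequence (337 of 767 Mb), or 11.4% of the listed sequence. Their length ran from 0.2 to 498.9 kb with a median of 122 kb, and the middle 50% lay between 66.6 and 220 kb. The other 423 early domains had a median of 832 kb and reached 4.38 Mb. A single deposited interval made up 1578 of the short domains (72.8%), 2 intervals made up 424, and 166 were joined from 3 or more. Lengths were not spread smoothly. There were 138 domains between 20 and 25 kb, while 2 were shorter than 20 kb, and all early intervals other than these 2 were at least 20 kb long. In steps of 10 kb, domain numbers were highest at 20 to 30 kb (219), fell to 62 at 70 to 80 kb and rose again to 134 at 90 to 100 kb. The labels do not state how the intervals were cut.

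**Figure D1:**
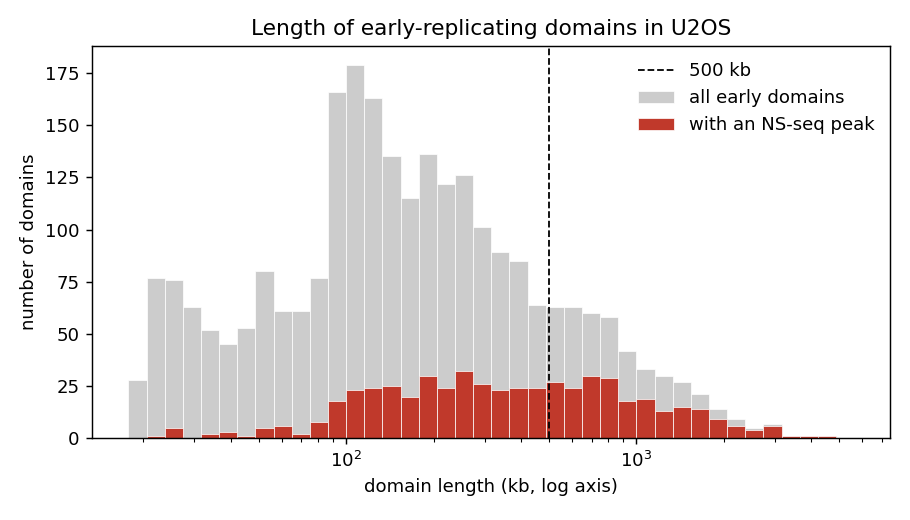
Number of early domains (vertical axis) by length in kb (horizontal log axis), with the domains holding an NS-seq peak in red and the 500 kb limit as a dashed line. Most early domains lie left of the limit, where peak holders are the minority: 331 of 2168, against 212 of 423 to its right. The 2 domains under 20 kb lie off the axis.

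The 2 shortest domains adjoin near the left end of chromosome 20. They span 28801 to 29000 (0.2 kb) and 29101 to 31100 (2 kb), with 0.1 kb of mid-early sequence between them. The next 3 were 20 kb each and began at 139074101 on chromosome 2, at 90492701 on chromosome 6 and at 31898501 on chromosome 7. None of these 5 held an NS-seq peak. No sequence of this build was at hand, so whether reads can be placed at these positions was not checked. The 5 longest differed among themselves. The longest, on chromosome 4 from 186274001 to 186772900 (498.9 kb), held 1 peak and stood 794 kb from the next early domain. On chromosome 3, 9335801 to 9832800 (497 kb) held 3 peaks and 27228201 to 27724400 (496.2 kb) held 0. On chromosome 10, 115469801 to 115966500 (496.7 kb) held 0 peaks, and on chromosome 19, 5710801 to 6206600 (495.8 kb) held 2. Just above the limit, the 3 next early domains were alike in length and peaks. Chromosome 16 carried the first (66415901 to 66920300, 504.4 kb, 1 peak), chromosome 15 the second (76731901 to 77237000, 505.1 kb, 0 peaks) and chromosome 20 the last (3732701 to 4237900, 505.2 kb, 1 peak).

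Nearly every short early domain lay between mid-early sequence. Mid-early domains touched 2018 of the 2168 on both sides (93.1%), against 415 of 423 large early domains (98.1%). A further 132 short domains had mid-early on a single side and mid-late on the other, 8 had mid-late on both sides, and 9 ran to a chromosome end. Only 1 touched late sequence, on chromosome X from 109374901 to 109540600. A direct border with mid-late or late sequence, with no mid-early step listed between, was thus found in 141 short domains (6.50%) and 8 large ones (1.89%). Domains with such a border had a median length of 124 kb, and 20 of 141 held an NS-seq peak (14.2%, exact Clopper-Pearson interval 8.88 to 21.1%), close to the 15.3% of all short domains.

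The 8 domains that rose straight out of mid-late sequence on both sides held 0 NS-seq peaks in all. They are too few to set against the 15.3% of all short domains with a peak. Of these, 3 lay on chromosome X, at 10823001 to 11012900, 22118801 to 22296300 and 31229301 to 31356300. The others lay on chromosome 6 (106651201 to 107127600), chromosome 9 (18177701 to 18408100), chromosome 11 (888601 to 985100), chromosome 18 (23065101 to 23252900) and chromosome 21 (42282801 to 42430400). Their lengths ran from 96.5 to 476.4 kb. On chromosome X, 2.78% of all short early domains held a peak.

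Short early domains came in chains. The gap to the nearest other early domain had a median of 97.3 kb, and the middle 50% of gaps lay between 46.0 and 175 kb. For large early domains the median gap was 59.6 kb. The gap was under 100 kb at 1123 short domains and 1 Mb or more at 70. In 1663 cases (76.7%) it held mid-early sequence alone, and in 64 cases it included late sequence. The nearest early neighbour was another short domain in 1775 cases and a large one in 393 (18.1%), while large domains were 16.3% of early domains. Mid-early domains touching the members were short as well, with a median of 84.5 kb.

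The wider surroundings of short domains were somewhat later than those of large ones. Within 500 kb on each side, 35.8% of the sequence around short domains was early, 42.7% mid-early, 20.3% mid-late and 1.17% late. Around large domains the shares were 45.8%, 40.1%, 13.7% and 0.468%. Late sequence began within 500 kb of 259 short domains (11.9%) and 23 large ones (5.44%), and the median distance to it was 1.56 Mb and 1.72 Mb.

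Runs of touching early and mid-early domains, termed blocks here, separated 3 settings. In the first, 861 short domains (39.7%) shared a block with at least 1 large early domain. In the second, 857 (39.5%) lay in 286 blocks that held 2 or more short early domains and no large one. The remaining 450 (20.8%) were the sole early domain of their block, standing as single crests bounded by mid-late or late sequence or a chromosome end. Single crests were the shortest, with a median of 90.6 kb, against 125 kb in blocks of short domains and 143 kb beside large domains. Up to 12 short domains shared a block. This was reached on chromosome 1 from 41930501 to 48297400 and on chromosome 12 from 108534201 to 113498600, each with 2 large domains as well. A block on chromosome 12 from 93125601 to 97521900 also had 12 short domains, with no large early domain, and its 12 members held 0 NS-seq peaks. By contrast, the 11 short domains of a block on chromosome 11 from 60742101 to 65361500, also without a large domain, held 25 peaks.

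The most isolated members stood several Mb from any other early sequence. The farthest, on chromosome 18 from 77694601 to 77887100, was 9.40 Mb from the next early domain and held 2 peaks. On chromosome 21, 18764501 to 18950500 was 8.98 Mb away and held 0. On chromosome 8, 18701 to 163600 was 6.85 Mb away and held 1. Next, 132417501 to 132567200 on chromosome 12 was 6.60 Mb away and 54152701 to 54173700 on chromosome 10 was 5.54 Mb away, both with 0 peaks. Of the 9 members that reached a chromosome end itself, 6 held a peak, led by 180621801 to 180915200 on chromosome 5 with 4 peaks and 1 to 122100 on the same chromosome with 3.

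Chromosomes differed in how far their early sequence was broken into short domains. Members numbered from 28 on chromosome 21 to 194 on chromosome 1. Per Mb of listed sequence they were densest on chromosomes 19 (1.27), 22 (1.11) and 17 (1.06) and sparsest on chromosomes 4 (0.492), 18 (0.576) and 13 (0.613), around a median chromosome at 0.717. The share of early sequence held in short domains gave another order. It was highest on chromosome 13 (73.2%, 59 short and 3 large domains), chromosome X (65.4%, 108 and 9) and chromosome 6 (60.5%, 120 and 15). It was lowest on chromosomes 15 (28.5%), 20 (28.9%) and 17 (32.7%). Short domains thus held most of the early sequence on 8 of 23 chromosomes. Their median length varied less, from 90.8 kb on chromosome 20 to 155 kb on chromosome 21.

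NS-seq peaks were found in a minority of short early domains. A peak midpoint lay in 331 of 2168 (15.3%, exact Clopper-Pearson interval 13.8 to 16.9%), while 1837 held none. The deposited list holds no peak scored below 10.0, so a domain without a listed peak may still contain weaker origins. Among large early domains 212 of 423 held a peak (50.1%, interval 45.2 to 55.0%). Per unit of sequence the 2 sets were close. Short domains had 1.90 peaks per Mb (639 peaks, exact Poisson interval 1.75 to 2.05) and large domains 1.78 (767 peaks, 1.66 to 1.92), a ratio of 1.06 with an interval of 0.955 to 1.18 that includes 1. All listed sequence of these chromosomes had 1.26 peaks per Mb. This counts every listed base, including 20 mid-early domains of 1 Mb or more (99.98 Mb) that held 0 peaks. Stretches where reads cannot be placed were not removed.

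Peaks were unevenly divided among the members. Of the 331 domains with a peak, 213 held 1, while 118 held 2 or more, and those 118 accounted for 426 of the 639 peaks (66.7%). There were 25 domains with 5 or more. Domains with a peak were longer, with a median of 198 kb against 112 kb for those without. A domain with a peak inside also tended to have peaks beside it: 196 of the 331 (59.2%) had another in a touching mid-early domain, against 307 of the 1837 without (16.7%). Peaks inside or in a touching mid-early domain together reached 638 short domains (29.4%). Among the 1837 domains without a peak, the nearest was within 100 kb for 331 (18.0%) and more than 1 Mb away for 770 (41.9%). The authors' peak score was similar in both sets, with a median of 11.7 in short and 11.5 in large domains, ranging from 10.0 to 21.8 in each.

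Longer early domains held a peak more often. Among early domains the share with a peak was 2.94% below 50 kb (12 of 408), 9.01% from 50 to 100 kb (39 of 433) and 16.2% from 100 to 200 kb (115 of 709). It was 23.7% from 200 to 300 kb (77 of 325) and 30% from 300 to 500 kb (88 of 293). Other timing classes at the same lengths give the comparison. Mid-early domains held a peak in 5.43%, 12.2%, 14.6%, 21.3% and 26.5% of cases over the same 5 length ranges. Mid-late domains did so in 4.53%, 9.36%, 11.5%, 13.3% and 17.3%, and late domains in 2.90%, 5.11%, 6.52%, 8.09% and 10.9%. Exact Clopper-Pearson intervals of early domains overlapped those of mid-late and of late domains below 100 kb. From 100 kb upward they were separate from both. At 100 to 200 kb early (13.58 to 19.14%) and mid-late (9.78 to 13.50%) were barely apart. Intervals of early and mid-early domains overlapped in every range.

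Per Mb, early domains of 50 to 100 kb were sparser in peaks than mid-early domains of the same length. Early domains below 50 kb had 1.12 peaks per Mb (14 peaks, exact Poisson interval 0.610 to 1.87), against 2.07 (100 peaks, 1.69 to 2.52) in mid-early domains, and these intervals overlap. From 50 to 100 kb the early domains had 1.58 (53 peaks, 1.19 to 2.07) and the mid-early domains 2.77 (286 peaks, 2.46 to 3.11), with intervals that do not overlap. From 100 kb upward both classes had overlapping intervals in each length range, with early values of 1.89, 2.29 and 1.80 peaks per Mb and mid-early values of 1.77, 1.99 and 1.92. Mid-late domains had 2.27 peaks per Mb below 50 kb and 2.02 from 50 to 100 kb, above the early values but with overlapping intervals. Their density fell to 0.895 from 300 to 500 kb. In late domains density fell with length from 1.18 below 50 kb to 0.565 from 300 to 500 kb.

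**Figure D2:**
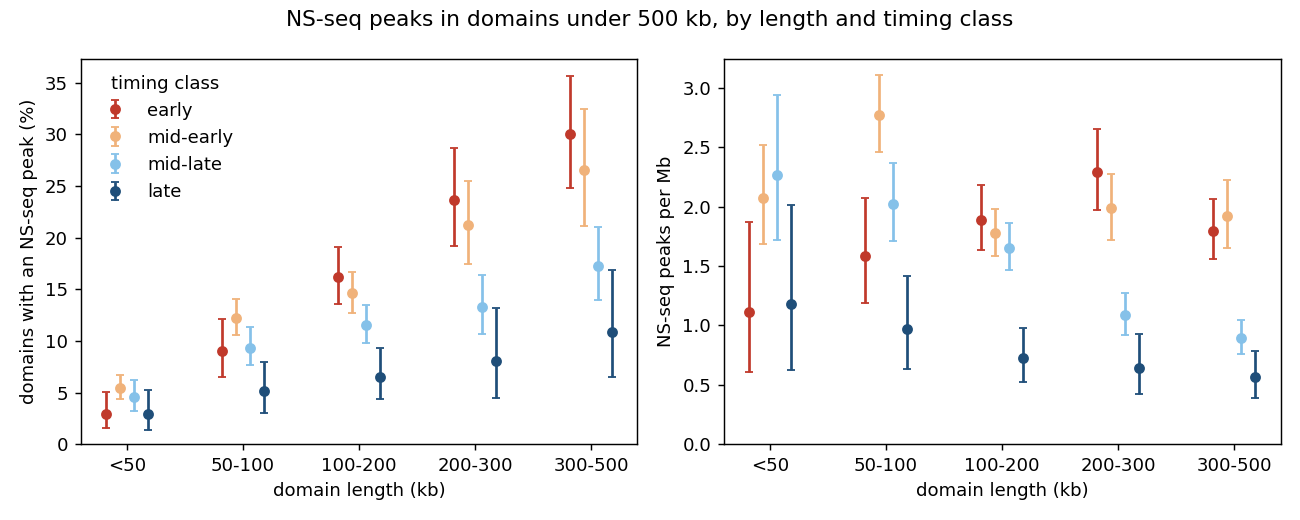
Share of domains with an NS-seq peak in percent (left) and NS-seq peaks per Mb (right) against domain length in kb, for domains under 500 kb of each timing class; points are values and bars are exact 95% intervals for counting error. The early share climbs from 2.94% to 30% and separates from the late share with length, while early density is lowest in the 2 shortest ranges.

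Peaks lay toward the borders of short early domains, though not when early domains were joined across gaps of up to 100 kb. The inner 50% of each domain's length held 262 of the 639 peaks (41.0%, exact Clopper-Pearson interval 37.2 to 44.9%), and 49.3% with that joining. In large early domains it held 381 of 767 (49.7%, interval 46.1 to 53.3%), close to its share of the sequence. From the centre to the border in 4 equal parts of the distance, short domains held 116, 146, 181 and 196 peaks, and large domains 198, 183, 156 and 230, so the part at the border was the richest in both. Among the 618 members of 200 kb or more, which have the room to show a centre, the inner share was 38.6% (148 of 383, interval 33.7 to 43.7%). Among the 1550 shorter members it was 44.5% (114 of 256, interval 38.3 to 50.8%).

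The mid-early sequence within 100 kb of a short domain was denser in peaks than the domain as a whole. Within 100 kb outside, with each base given to its nearest early border, there were 2.49 peaks per Mb (596 peaks in 239 Mb, exact Poisson interval 2.30 to 2.70), against 1.90 inside. The ratio was 1.31 (interval 1.17 to 1.47). Outside was denser on 19 of 23 chromosomes. Stepping inward from the border of short domains, density was 2.12 peaks per Mb within 25 kb, 2.12 from 25 to 50 kb, 1.88 from 50 to 100 kb and 1.32 beyond 100 kb (89 peaks, interval 1.06 to 1.62). Stepping outward it was 2.50, 2.50, 2.47 and, from 100 to 250 kb, 1.71. At the border itself the step was not resolved. Within 25 kb the intervals of inside (1.84 to 2.42) and outside (2.20 to 2.83) overlap. The low density of the deep interior enters the ratio, and only members of 200 kb or more reach that deep. Such members had 2.00 peaks per Mb inside (1.81 to 2.22) and 3.42 within 100 kb outside (2.98 to 3.91). Their inward steps were 2.78, 2.49, 2.12 and 1.32. Large early domains had 3.12 peaks per Mb within 100 kb outside and 1.78 inside as a whole (ratio 1.75, interval 1.44 to 2.10), with overlapping intervals within 25 kb of the border as well (2.74 inside, 3.19 outside). This comparison was added after the positions of peaks had been seen.

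**Figure D3:**
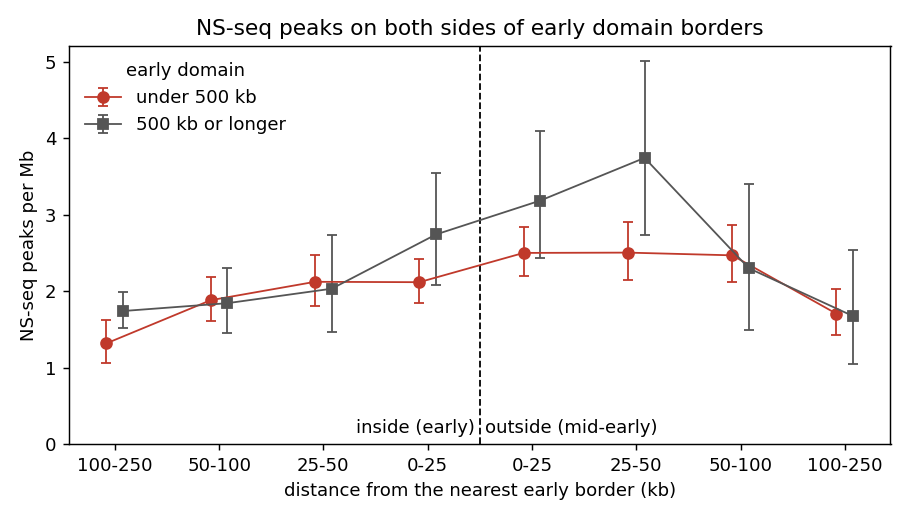
NS-seq peaks per Mb (vertical axis) against distance in kb from the nearest early border (horizontal axis), with early sequence left of the dashed line and touching mid-early sequence right of it; points are densities and bars exact 95% Poisson intervals. Short domains rise from 1.32 in their deepest sequence, present only in members of 200 kb or more, to 2.50 just outside the border. Large domains rise from 1.74 at 100 to 250 kb inside to 3.19 just outside and 3.74 at 25 to 50 kb. They fall to 1.67 at 100 to 250 kb outside.

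Where a short domain lay along its chromosome went with a large difference in peaks. The 221 members within 5 Mb of a chromosome end, a distance set after the data were seen, made up 9.47% of the members' sequence and held 233 peaks (36.5%). Their density was 7.30 peaks per Mb (exact Poisson interval 6.39 to 8.30), and 85 of them held a peak (38.5%). The other 1947 members had 1.33 peaks per Mb (406 peaks, interval 1.20 to 1.47), and 246 of them held a peak (12.6%). The comparison with large early domains turned with this position. Near chromosome ends short domains were the denser set, at 7.30 against 4.96 peaks per Mb (ratio 1.47, interval 1.16 to 1.87). By chromosome they were denser there on 14 of 19. The large set near ends was 28 domains with 107 peaks. Of the 233 peaks in short domains, 56 lay in the 7 members that begin in the first 3 Mb of chromosome 7. Those 7 had 44.9 peaks per Mb over 1.248 Mb, and so raise the ratio of 1.47. The ratio near ends without those 7 was not computed, so how much of the 1.47 would remain is not known. Elsewhere short domains were the sparser set, at 1.33 against 1.62 (ratio 0.823, interval 0.726 to 0.933). Large domains were the denser set away from the ends on 17 of 23 chromosomes. Chromosomes differ in density. At the density of all early sequence of each chromosome in the same zone, short domains included, short domains would hold 431 peaks away from the ends, where 406 were found (0.942 times as many). Near the ends they would hold 205, where 233 were found (1.14 times as many). These values are not on the scale of the ratios to large domains.

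Peak density in short domains differed widely among chromosomes. It was more than 1.5 times apart from that in large domains on 11 of 23 chromosomes. Some of these rest on few peaks, such as chromosome 4 (1 in short and 5 in large domains) and chromosome X (4 and 4). No interval was computed for single chromosomes. On chromosome 19, 41 of 75 members held a peak (54.7%) and density was 6.56 peaks per Mb, with 7.45 in its large domains. Chromosome 22 had 4.84 (large domains 4.71), chromosome 7 had 4.48 (2.91), chromosome 17 had 4.26 (3.57) and chromosome 21 had 4.19 (2.18). At the other end, chromosome 4 had 1 peak in 94 members (0.0758 per Mb, with 0.385 in large domains). Chromosome 6 had 4 in 120 (0.209 and 0.562), chromosome 13 had 3 in 59 (0.334 and 0.304) and chromosome X had 4 in 108 (0.334 and 0.630). Short domains were denser than the large domains of their chromosome on 14 of 23 chromosomes and sparser on 9.

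**Figure D4:**
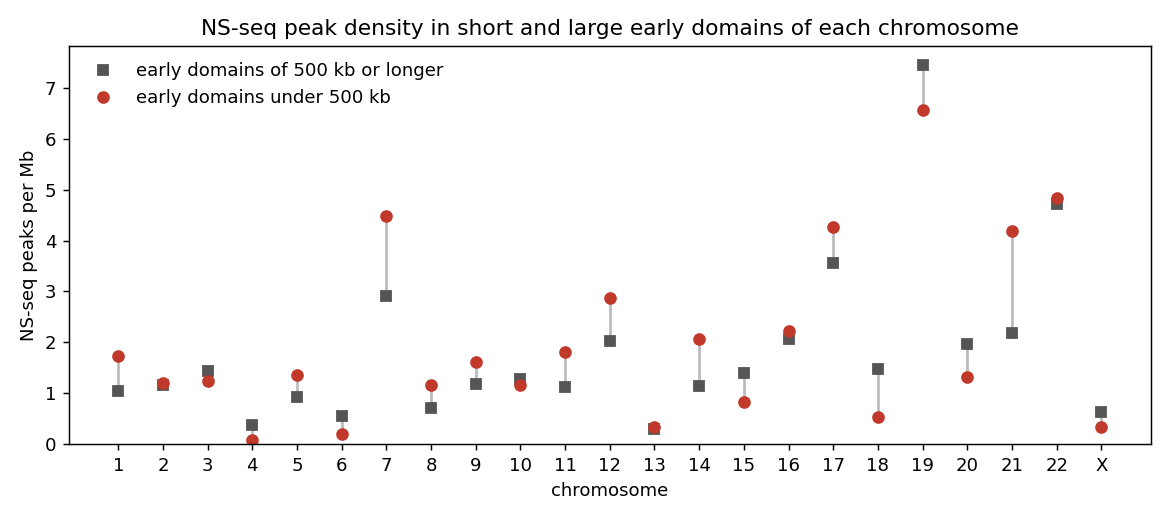
NS-seq peaks per Mb (vertical axis) in early domains under 500 kb (red circles) and of 500 kb or longer (grey squares) on each chromosome (horizontal axis), with a line joining both values. Chromosomes differ from 0.0758 to 6.56 in short domains, and the 2 sets lie more than 1.5 times apart on 11 of 23 chromosomes. Some of these have few peaks, and no intervals are drawn.

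The 10 members with the most peaks held 105 of the 639 (16.4%) in 0.828% of the members' sequence. The last of them was tied with 1 other member at 7 peaks and was taken for its higher number per Mb. They lay on 6 chromosomes, 4 of them on chromosome 7. The richest spanned 1630701 to 1884000 on chromosome 7 (253.3 kb) and held 20 peaks, or 79.0 per Mb, scored 10.1 to 16.7, with 32 more in the mid-early domains it touched. Close by, 274301 to 524500 held 11 peaks, 2282601 to 2542600 held 9 (with 34 in touching mid-early domains) and 1131601 to 1315200 held 8. All 7 short early domains that begin in the first 3 Mb of chromosome 7 held a peak. Together they had 56 peaks in 1.248 Mb, which is 72.7% of the peaks in the members of that chromosome.

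The other 6 were spread over 5 chromosomes. On chromosome 12, 6702801 to 6924600 held 11 peaks and 6444701 to 6671000 held 8, with 31.8 kb of mid-early sequence between them. On chromosome 17, 80309701 to 80680800 held 11 peaks, scored up to 19.2. A member on chromosome 11 from 64016601 to 64472700 also held 11, at a lower density of 24.1 per Mb over its 456.1 kb. In these 4 the inner 50% of the length held from 1 to 4 of the peaks. Members of chromosome 7 were mixed in this. It held 11 of 20 in the richest and 5 of 11 in the member from 274301. In the member from 2282601 it held 1 of 9, and in that from 1131601 it held 2 of 8. On chromosome 22, 37571201 to 38027900 held 9 peaks, 5 of them in the inner 50%, while its touching mid-early domains held 0. On chromosome 1, 161425601 to 161537600 held 7 peaks in 112 kb, none of them in the inner 50% of its length.

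**Figure D5:**
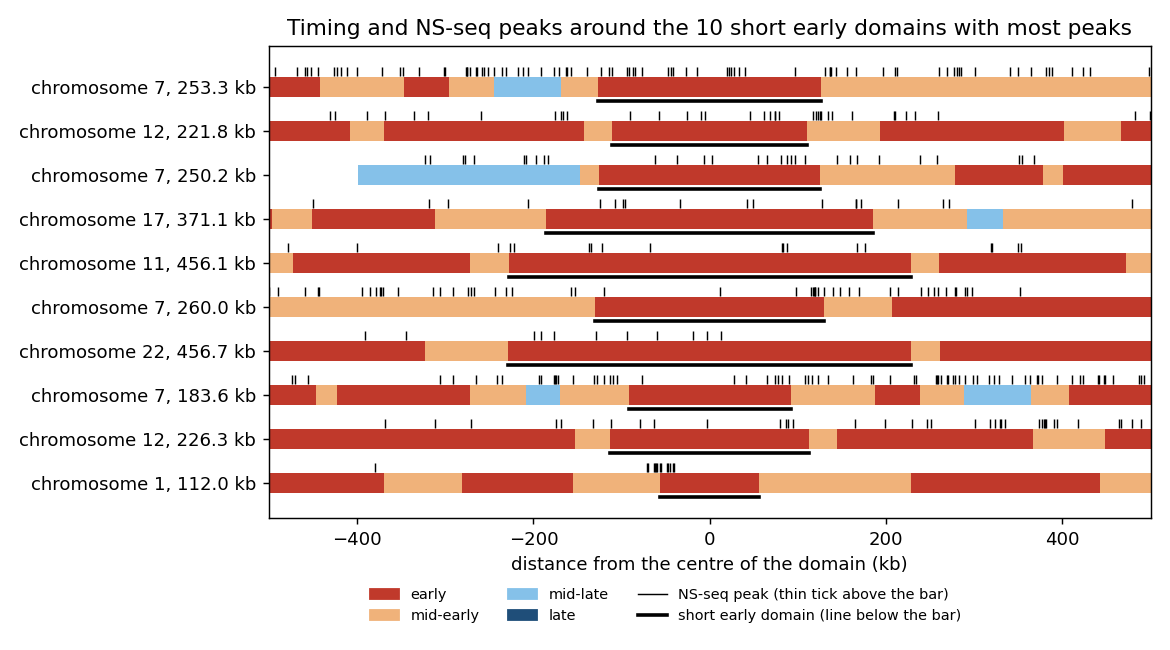
Timing classes (colours) and NS-seq peaks (thin ticks above each bar) within 500 kb of the centre of the 10 short early domains with the most peaks, on an axis of distance from the domain centre in kb; the black line under each bar marks the domain. Touching mid-early sequence holds peaks in all rows but that of chromosome 22, including the 4 rows of chromosome 7. In the row of chromosome 1, peaks crowd at a border.

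The setting of a domain in its block went with a smaller difference. Short domains that shared a block with a large early domain had 2.19 peaks per Mb (327 peaks, exact Poisson interval 1.96 to 2.44), and 18.5% of them held a peak. In blocks of short domains only, these values were 1.72 peaks per Mb (231 peaks, 1.504 to 1.955) and 13.5%. Single crests had 1.53 peaks per Mb (81 peaks, 1.21 to 1.90), and 12.4% held a peak (56 of 450). The density interval of the first setting begins at 1.956, where that of the second ends at 1.955, so the 2 are barely apart. The richest member, with 20 peaks, was in the first setting. Density intervals of the second setting and of single crests overlap. For the share with a peak, intervals of the first 2 settings overlap (15.93 to 21.22% and 11.32 to 16.01%). That of single crests was 9.54 to 15.85%. Single crests were also the shortest members, and the part of length or chromosome in this order was not tested.

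AsiSI sites bound by MRE11 were found in 20 short early domains. They held 21 of the 129 listed sites (16.3%, exact Clopper-Pearson interval 10.4 to 23.8%), and large early domains held 41. Short domains thus had 33.9% of the early sites, with an interval of 22.3 to 47.0% that includes their 44.0% share of early sequence. Per 100 Mb there were 6.23 sites in short domains (exact Poisson interval 3.86 to 9.52) and 9.54 in large ones (6.85 to 12.9), a ratio of 0.653 with an interval of 0.367 to 1.13 that includes 1. The 20 members lay on 13 chromosomes and were 63.5 to 485.9 kb long, with a median of 174 kb. Mid-early sequence flanked 18 of them on both sides. Of the 21 sites, 11 lay in the inner 50% of their domain (52.4%), with a wide interval of 29.8 to 74.3% that includes the 41.0% of peaks.

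NS-seq peaks were present in 9 of the 20 domains with a site (45%), against 15.3% of all short domains. No interval was computed for this share of 20 domains. Domains with a site spanned 63.5 to 485.9 kb, and the share with a peak rises with length. Among early domains it was 9.01% from 50 to 100 kb and 16.2% from 100 to 200 kb, the range of their median length. It was 23.7% from 200 to 300 kb and 30% from 300 to 500 kb. The part of chromosome and length in the difference from 45% was not tested. A peak lay within 10 kb of 3 sites and within 100 kb of 9, and the median gap was 137 kb, with no background computed for these distances. The closest was in the domain on chromosome 2 from 120094301 to 120172400 (78.1 kb), where the peak overlapped the site at 120124565 to 120124572. On chromosome 20, the domain from 1162201 to 1271700 held a peak 0.69 kb from its site at 1207615 to 1207622, scored 18.0. On chromosome 22, the site at 20785433 to 20785440 lay 5.06 kb inside the border of its domain (20609101 to 20790500) and 6.65 kb from a peak.

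In a further 6 domains a peak was present at a greater distance from the site. On chromosome 17, the domain from 61541901 to 62027800 held 6 peaks, the most of any with a site, the nearest at 137 kb. On chromosome 14, 23430601 to 23822300 held 2, the nearest at 49.7 kb. Single peaks lay 28.9 kb from the site in the domain on chromosome 21 from 46124701 to 46253200 and 86.7 kb away in that on chromosome 20 from 30790401 to 31037800. The same held at 89.1 kb on chromosome 1 (223875801 to 224125200) and at 102 kb on chromosome 16 (56953201 to 57096200).

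The other 11 domains with a site held no peak. The only domain with 2 sites was among them, on chromosome 1 from 9414001 to 9887800, with sites 235 and 176 kb inside its border. A second on chromosome 1 spanned 19798001 to 19964100. Chromosome 20 had 4284101 to 4669000, whose site lay 1.49 kb from the border, and 37309401 to 37467900. Chromosome 7 had 29580801 to 29644300 and 151765001 to 152183700. Others lay on chromosome 2 (68371301 to 68505700, beside mid-late sequence), chromosome 8 (124705001 to 124816000), chromosome 11 (75467501 to 75797900) and chromosome 15 (72566301 to 73018900). The last, on chromosome 5 from 79762601 to 79862900, had its nearest peak 10.9 Mb away.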

How the data were processed

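The values are 6 lists of regions. The submitters' processing notes name hg19 and MACS2, with no version or role, and neither they nor the labels state how timing was computed or divided into classes. The timing lists were deposited as 4 sets of intervals whose borders fall on multiples of 100 bp, with 0 gaps between neighbours on the chromosomes used. The NS-seq score was deposited by the authors with no stated scale. Read depth is unknown for every list. Members and comparisons were chosen with earlier results of these data known. Domains were built in Python 3.11.15. Peaks and sites were placed by midpoint, and 26 of the 3750 peaks, on other chromosomes, were left out. Positions are printed 1-based. Intervals are exact Clopper-Pearson, exact Poisson or, for ratios, exact conditional binomial intervals (scipy 1.17.1). The counting was tested on simulated data. Regions were named by extreme length, peak number, isolation, flanks and sites. Genes and sequences were not used, because the reference tables at hand are on GRCh38. Alternatives changed the length limit, joining, chromosomes, peak placement, score, clustering and position.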

Additional observations from a re-analysis of the deposited data

How the results depend on the processing

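Across 10 results, 317 alternatives were computed, 278 planned and 39 added after seeing the data. In 283 the value stayed within its counting interval or within 1.5 times, 28 moved further and 6 turned to the other side of 1. No paired analysis was possible because each list is a single summary without replicates. The ratio of peak density in short over large domains, 1.06, fell below 1 with a limit of 1 Mb (0.979), with domains joined across 50 kb (0.975) or 100 kb (0.912), with 1 peak per 100 kb (0.965), without windows of more than 20 peaks (0.938) and away from chromosome ends (0.823). Of these, only the value away from ends has an interval below 1 (0.726 to 0.933). Intervals of the rest include 1. The ratio was 1.47 near ends and 1.02 to 1.10 with each chromosome left out. The ratio across the border stayed above 1 in all its alternatives, and was 1.56 without members under 100 kb.

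The number of members was 1327 without those under 100 kb and 1214 when joined across 100 kb. The share with a peak was 12.02% under 250 kb, 18.6% under 1 Mb, 21.1% without members under 100 kb, 13.6% when joined across 100 kb, 9.36% with peaks at or above the median score and 12.6% away from ends. Peaks per Mb were 1.71 without chromosome 19, 0.926 at or above the median score, 1.16 with 1 peak per 100 kb, 1.60 without peak-rich windows and 1.33 away from ends. The inner share of peaks was 49.3% when joined across 100 kb, so the lean toward borders is lost there, and the median gap was 178 kb. Sites inside numbered 13 under 250 kb, 41 under 1 Mb and 11 when joined across 100 kb. Mid-early on both sides held for 90.4% when joined across 100 kb and 94.3% without chromosome X. Members in blocks without a large domain were 47.7% under 250 kb, 84.4% under 1 Mb, 56.0% without members under 100 kb, 63.0% joined across 50 kb and 70.4% across 100 kb. In the first pair the limit itself decides which domains are large. Unknown read depth limits what can be said of domains without a peak. For the other changes the cause was not tested.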
